A study of Mus musculus with 3 samples.

Results

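Genes of Schwann cells and nerve were examined in neonatal dorsal skin of mice with and without the uncv mutation. The set named 8 genes, Mbp, Gap43, Pmp22, Cnp, Prx, Ngfr, S100b and Sox10, and was chosen by function and by measured values, since Mbp and Gap43 lay below wild type in both uncv null arrays. Every probe set annotated with exactly 1 of these symbols was taken, which gave 21 probe sets for 7 genes out of 45037 probe sets in all. Prx, which encodes the Schwann cell protein periaxin, had no such probe set and has no value here. Because these arrays also chose the set, its differences from wild type are given as a description of 3 arrays, without a test.

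The samples were whole dorsal skin of 4-day-old female BALB/cA mice, sisters born to parents heterozygous for uncv. There was 1 wild type (uncv +/+) array and 2 uncv null (uncv -/-) arrays, here null 1 and null 2. Uncovered (uncv) is a spontaneous mutation that leaves the coat sparse or missing, and it has since been mapped to Rhbdf2, the gene of the inactive rhomboid protein iRhom2. It is carried in every tissue of the mouse, nerve included. Skin RNA of this kind mixes epidermis, follicles, dermis, fat, the muscle sheet under the skin and nerve fibres, so fewer cells of a type and less RNA per cell cannot be told apart. The values, made by RMA, are in log2, so that 1 unit is 2-fold, and each difference is uncv null minus wild type. An error given as ± is limma's moderated SE for 1 wild type against 2 null arrays. A probe set was tested if its mean over the 3 arrays was at least 5.

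Schwann cells are the glia of peripheral nerve. They arise from the neural crest, accompany sensory and autonomic axons into the dermis, and either wrap a single large axon in myelin or hold bundles of thin axons without myelin. In rodents the myelin of peripheral nerve is laid down mainly around birth and in the first weeks of life, so skin of this age holds both myelinating and immature cells. Mbp and Pmp22 encode structural proteins of the myelin sheath, and Cnp an enzyme of the cytoplasmic channels of myelin-forming glia. Ngfr encodes the low-affinity neurotrophin receptor p75, S100b a calcium-binding protein used as a glial marker, and Sox10 the transcription factor that sets glial and melanocyte fate. Gap43 encodes a growth cone protein of extending axons that immature and non-myelinating Schwann cells also make.

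The skin label was borne out by its markers. The 12 keratin, cornified envelope and collagen markers all passed the filter, with mean values of 11.6 in wild type, 11.6 in null 1 and 11.5 in null 2. The defining nerve markers were mostly dim. The neurofilament gene Nefl lay at 2.82, 2.80 and 2.90 in wild type, null 1 and null 2, and Prph, the peripheral neuron filament, at 4.26, 4.17 and 4.01. Mag, a myelin-associated glycoprotein, lay at 4.03, 4.41 and 3.36. For scale, the 9 probe sets of Y-linked genes, which these female mice do not carry, ran from 2.44 to 3.65, and the median over all probe sets was 3.70 in wild type, 3.70 in null 1 and 3.65 in null 2. The mRNA of sensory neurons is made mostly in ganglia outside the skin, so the neuronal list is a weak guide to axon content.

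Mbp stood farthest from wild type. Its brightest probe set, 1433532_a_at, read 9.16 in wild type, 7.88 in null 1 and 7.29 in null 2. Both null arrays were lower, with differences of -1.28 and -1.87 (2.42-fold and 3.65-fold lower), and the mean difference was -1.57 ± 0.33. Among all 8456 tested genes, each represented by its brightest probe set, 17 (0.201%) had a mean difference as low as that of Mbp or lower. Mbp was picked on this same contrast, so its rank is a description and no measure of chance.

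The other Mbp probe sets, 8 in all with the brightest, divided clearly. Probe set 1456228_x_at read 7.60 in wild type, 6.42 in null 1 and 5.53 in null 2. Probe set 1419646_a_at read 7.33, 6.13 and 5.66 in the same order, and 1436201_x_at read 6.78, 5.48 and 5.05. In each of these the wild type array was highest and null 2 lowest, and the mean differences were -1.62 ± 0.41, -1.44 ± 0.31 and -1.51 ± 0.30. The dimmer 1454651_x_at read 5.91, 4.82 and 4.51, with a mean difference of -1.25 ± 0.28. The same order held in 1451961_a_at, at 5.58, 4.66 and 4.43, whose mean missed the filter. Altogether 6 of 8 Mbp probe sets were lower in both null arrays, with mean differences from -1.03 to -1.62.

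The remaining Mbp probe sets did not share this pattern. Probe set 1425264_s_at read 5.08 in wild type, 5.50 in null 1 and 5.44 in null 2, which put both null arrays above wild type (mean difference 0.39 ± 0.26). Probe set 1425263_a_at read 3.23, 3.20 and 3.26, within the range of the Y-linked probe sets in every array. The Mbp locus makes myelin proteins by splicing and, from an upstream start, the larger golli proteins, which are also found in immune cells. Which transcripts each probe set detects was not examined. A suffix of _s_at or _x_at marks a probe set that may also read other transcripts, and _a_at one that reads several transcripts of a gene.

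**Figure D1:**
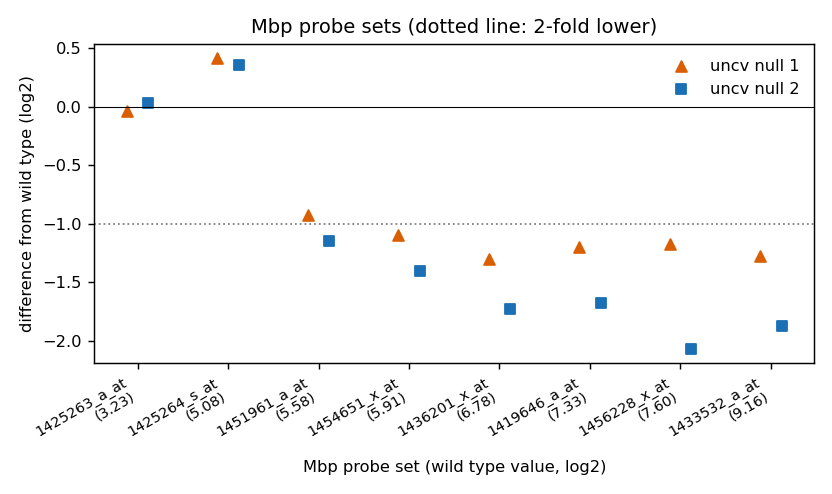
Difference from wild type (log2) of null 1 (triangles) and null 2 (squares) for each of the 8 Mbp probe sets, ordered by the wild type value in brackets, with a dotted line at 2-fold lower. The 6 probe sets with wild type values of 5.58 and above lie between -0.92 and -2.07, while 1425264_s_at lies above 0 in both arrays and 1425263_a_at lies at about 0.

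Gap43 had a single probe set, 1423537_at, which read 5.99 in wild type, 5.08 in null 1 and 4.24 in null 2. Both null arrays were lower, by 1.89-fold and 3.38-fold, and the mean difference was -1.34 ± 0.40. Its difference in null 1, -0.92, fell short of 2-fold, while that in null 2 was -1.76. Of all tested genes, 31 (0.367%) had a mean difference at least as low. Gap43 too was picked on this contrast, so its rank is likewise only a description.

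The other myelin genes differed less. Pmp22, whose dosage is altered in common inherited neuropathies and which fibroblasts and epithelia also express, read 9.79 in wild type, 9.36 in null 1 and 8.90 in null 2 (mean difference -0.66 ± 0.30). Its null arrays lay 1.35-fold and 1.85-fold below wild type, and 198 tested genes (2.34%) were as low or lower. Cnp was read by 3 probe sets, all lower in both null arrays. The brightest, 1437341_x_at, read 7.61, 7.41 and 7.02 in wild type, null 1 and null 2 (mean difference -0.39 ± 0.29). The dimmer 1449296_a_at read 5.22, 4.63 and 4.52, and 1418980_a_at read 4.68, 4.10 and 4.27. The last was the exception among the Cnp probe sets, with null 1 below null 2. The Cnp difference in null 1 by the brightest probe set, -0.19, was smaller than its difference between the null arrays, -0.40.

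Upstream sequence is shown for Pmp22 and Cnp, the myelin genes just described, both lower in both null arrays. The bases lie before the first annotated base of each gene, which for Cnp comes ahead of the start used in the search that follows (RefSeq, GRCm38.p6), at chr11:63128732-63128981 on the plus strand for Pmp22 and at chr11:100574689-100574908 on the plus strand for Cnp. They are printed 5′ to 3′, with capitals for a match to the SOX motifs ACAAAG or ACAATG.
Pmp22: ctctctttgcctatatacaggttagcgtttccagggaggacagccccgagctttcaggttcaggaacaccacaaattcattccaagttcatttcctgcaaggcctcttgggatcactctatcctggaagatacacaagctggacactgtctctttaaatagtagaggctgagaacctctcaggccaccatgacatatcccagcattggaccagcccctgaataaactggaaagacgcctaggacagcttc
Cnp: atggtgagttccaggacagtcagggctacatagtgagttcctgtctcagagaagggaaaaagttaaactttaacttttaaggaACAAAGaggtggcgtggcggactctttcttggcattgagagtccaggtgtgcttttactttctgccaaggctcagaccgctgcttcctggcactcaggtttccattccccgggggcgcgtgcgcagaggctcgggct

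The 8 windows of 250 bases before an annotated start of Prx, S100b, Pmp22, Ngfr and Cnp were searched on both strands. Mbp, Gap43 and Sox10 were not searched. A SOX motif was found in 1 of them, on the plus strand of Cnp with its first base 167 bases before the start. Of 32851 such windows over all genes, 25.2% held a SOX motif. The EGR motifs GCGTGGGCG and GCGGGGGCG, written for the family of the myelin regulator Egr2, were found in 0 of the 8 windows and in 3.1% of all windows. These matches describe the letters only, and Schwann cell enhancers outside the windows were not searched.

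The glial markers and receptor were dim. Ngfr read 4.73 in wild type, 4.56 in null 1 and 3.90 in null 2 by its brightest probe set. Its other probe sets read 3.34, 3.14 and 2.94, and 3.00, 2.92 and 2.81, both within the Y-linked range in every array. S100b read 4.12, 3.78 and 3.47 by 1434342_at and 3.18, 2.91 and 2.63 by 1419383_at. The first of these lay within the Y-linked range in null 2, and the second in every array. All 5 of the Ngfr and S100b probe sets were lower in both null arrays, with null 2 lowest, but all 5 missed the filter. Differences at this level are compressed toward 0, and values within the Y-linked range may hold no signal.

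Sox10 did not separate the groups. Its brightest probe set read 5.97 in wild type, 5.99 in null 1 and 5.42 in null 2, so that wild type lay between the null arrays (mean difference -0.26 ± 0.33). Probe set 1424985_a_at read 4.16, 4.21 and 3.96, and 1425369_a_at read 3.01, 3.40 and 3.12. Melanocytes also depend on Sox10, and 9 of 12 melanocyte markers with a probe set passed the filter, so the skin held them. Of these 9, 3 lay above and 0 below wild type in both null arrays, and their summed log2 values were 64.4, 62.7 and 68.7 in wild type, null 1 and null 2. Mitf was at 0.36 and 0.78 from wild type in null 1 and null 2, Tyr at -0.63 and 0.56, and Dct at -0.19 and 0.37. Their part in the Sox10 values was not tested.

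**Figure D2:**
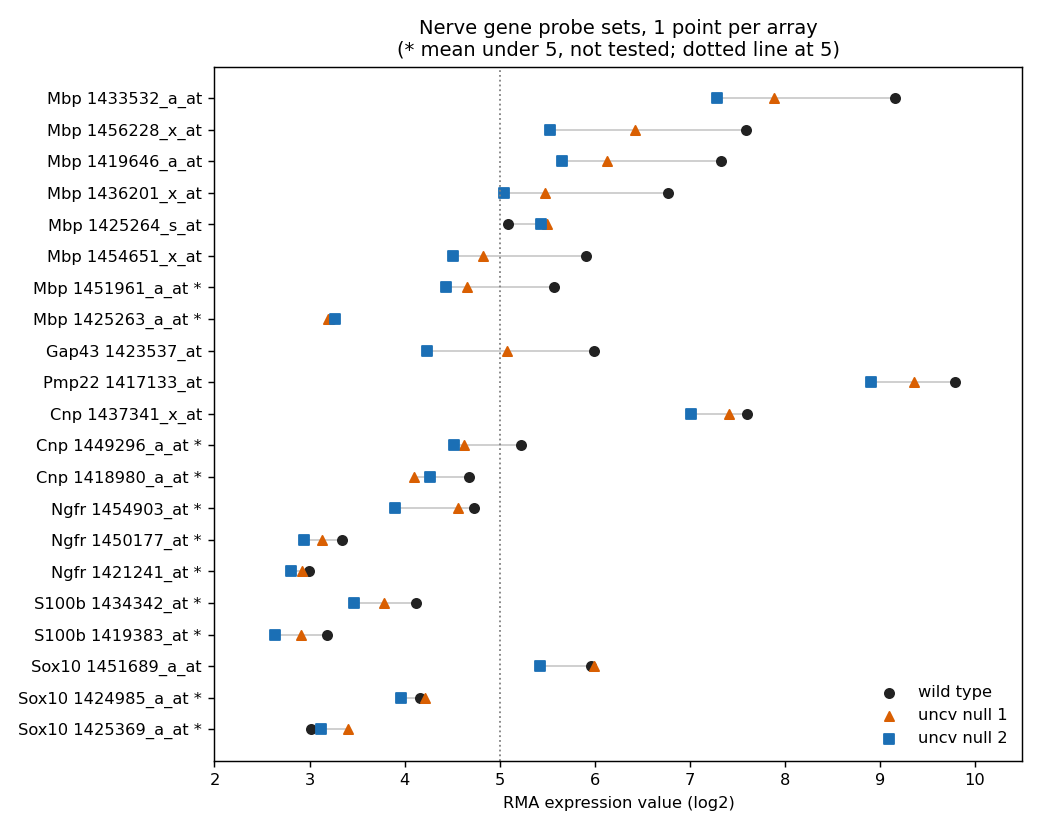
RMA expression value (log2) of each of the 21 probe sets in wild type (circles), null 1 (triangles) and null 2 (squares), with a grey line over the range and a dotted line at the filter of 5. The wild type circle is rightmost in 16 of 21 rows, and the Sox10 rows and the dimmest and the 1425264_s_at rows of Mbp are the exceptions.

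Over the whole set, 16 of 21 probe sets were lower in both null arrays, 2 were higher in both and 3 were split. Over all 45037 probe sets 30.1% were lower in both. The set was picked on this contrast, probe sets of 1 gene share their transcript, and both differences share the wild type array, so nothing is read from that gap. By gene, 5 of 7 passed the filter, and Mbp, Gap43, Pmp22 and Cnp of these were lower in both null arrays and Sox10 was split. The filter mean includes wild type, so a probe set can pass through its wild type value. Gap43 passed at a mean of 5.10 with null 2 at 4.24. Mbp 1454651_x_at passed at 5.08 with null 1 at 4.82 and null 2 at 4.51. Over all tested genes 26.4% were lower and 38.8% higher in both arrays. The median difference was -0.66 over the 5 genes and 0.04 over all tested genes. At least 2-fold lower in both arrays were 5 member probe sets, all of Mbp, against 0.288% of 13559 tested probe sets, and 1 gene, Mbp, against 0.296% of tested genes. At the edge of the choice, among the tested genes, Cnp lay just below wild type in null 1 at -0.19 and Sox10 just above at 0.03.

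The null arrays differed from each other. Null 2 lay below null 1 in 19 of 21 probe sets, including all 10 that were tested, whereas over all probe sets 54.2% had null 2 below null 1. Here too probe sets of 1 gene share their transcript, so nothing is read from that gap. For Mbp and Gap43 the gap between the null arrays was -0.59 and -0.84. The median difference of the 5 tested genes was -0.44 in null 1 and -0.89 in null 2.

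**Figure D3:**
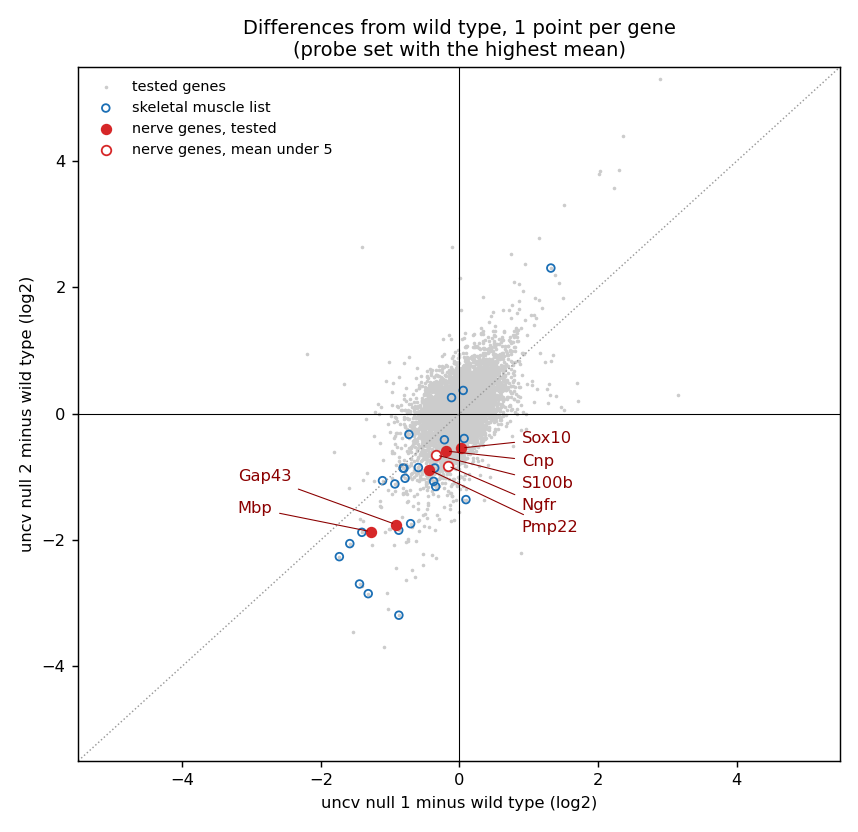
Difference from wild type (log2) in null 1 (horizontal) and null 2 (vertical) for all tested genes (grey), the skeletal muscle list (open blue) and the nerve genes (red, open where the mean was under 5), with a dotted line of equal differences. Mbp and Gap43 lie among muscle genes at the lower left, at -1.28 and -1.87 and at -0.92 and -1.76, while Sox10, Cnp, S100b, Ngfr and Pmp22 lie nearer to 0, also below the dotted line.

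Genes of other tissues differed from wild type on the same arrays. Of 24 tested skeletal muscle genes, 19 lay below and 2 above wild type in both null arrays. Their median was -0.84 and their summed log2 level 211, 196 and 184 across wild type, null 1 and null 2. For this and the other tested counts here, the shares over all tested genes were 26.4% lower and 38.8% higher in both. Tnni1, a troponin of slow muscle, read 7.89, 6.16 and 5.63, and Actc1, an actin of embryonic and cardiac muscle, read 10.3, 8.98 and 7.45. The 2 genes above wild type were Actn3, at 4.78, 6.10 and 7.09, and Myh1, at 8.8, 8.9 and 9.2. At the neuromuscular junction, where motor axons end with their terminal Schwann cells, 2 of 12 genes passed the filter. Chrna1, the acetylcholine receptor subunit, read 5.41, 5.01 and 4.74, and Agrn, the organiser of the synapse that epithelia also make, read 8.21, 8.29 and 8.15. Chrna1 was thus lower in both null arrays and Agrn split. The tested median was -0.26 and became 0.01 with a minimum mean of 7, where Agrn alone was left. Over all 12 genes, 10 of them under the filter, 11 were lower and 0 higher in both null arrays (median -0.34). Of all probe sets, 30.1% were lower in both. White adipocyte genes lay the other way, with all 10 tested genes higher in both arrays (median 0.79, summed log2 values 75.2, 80.1 and 85.8). S100b, which adipocytes also make, lay below wild type. Of 12 genes of the Merkel cell list, cells that meet touch fibres in the epidermis, 9 missed the filter. The 3 tested were lower in both arrays, among them Krt8 at 6.52, 5.60 and 4.07. Over all 12, 8 were lower and 1 higher in both. The collagen gene Col1a1 of dermal fibroblasts read 11.8, 11.7 and 11.1. The part of muscle and of the other cell types in the values of Mbp, Gap43 and Pmp22 was not tested.

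The genes whose pair of differences lay nearest to that of Mbp, by Euclidean distance over the 2 null arrays among 8326 named tested genes, were Tnnt2 (0.13), Casq2 (0.20), Coch (0.20), Mybph (0.21) and Fabp3 (0.25). Tnnt2 encodes cardiac troponin T, Casq2 the cardiac and slow muscle calsequestrin, Mybph a muscle myosin-binding protein and Fabp3 a lipid carrier of the heart. Nearest to Gap43 were Myog (0.10), the myogenic transcription factor, Reln (0.12), a secreted matrix protein of developing neural tissue, Prss35 (0.12), Iqgap2 (0.14) and Casq2 (0.19). Reln read 6.43, 5.41 and 4.60 in wild type, null 1 and null 2. Mbp and Gap43 themselves lay 0.38 from each other. With 2 differences per gene such likeness is coarse, and 4 genes lay within 0.25 of Mbp and 7 of Gap43.

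Other Schwann cell, axon and neurotrophin genes did not share one direction. By limma, adjusted by Benjamini-Hochberg across the tested table, 0 of 13559 (0%) passed at 0.05, while 391 had an unadjusted p under 0.05. Hence 0 genes of each list below passed, in either direction, and the smallest adjusted p was 0.9996. Of 34 further myelin and Schwann cell genes, 30 had a probe set and 8 were tested. Of these 8, 5 lay above wild type in both null arrays and 2 below it, and the median was 0.28. Beside this and the tested counts of the nerve lists below, 38.8% of all tested genes were higher and 26.4% lower in both. Over all 30, 22 of them under the filter, 13 were lower and 9 higher in both, and the median was -0.09. That compares with 30.1% of all probe sets lower in both. The sign of the median thus depends on the filter, and the list has no settled direction. Scaling the arrays to their spike-in controls, described at the end, turned the tested median of this list to -0.29, that of the regulators of myelination to -0.50 and that of the melanocyte list to -0.48, and left 3 of 10 adipocyte genes higher in both null arrays, so directions above wild type hold relative to the other genes of the arrays.

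The tested members of that list are mostly not confined to nerve. Mal, a raft protein of myelin and epithelia, read 6.37, 6.30 and 4.69, a difference seen in null 2 alone. Chl1, a neural adhesion molecule, lay above wild type at 5.96, 6.64 and 6.93 (0.82 ± 0.28), the reverse of Mbp. Fa2h, which makes hydroxylated lipids of myelin and of skin, was at 0.61 ± 0.26, and Cadm4, an adhesion molecule of Schwann cells, at -0.36 ± 0.26.

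Regulators of myelination were divided too. Of 16, 12 were tested, with 4 above and 3 below wild type in both arrays and a median of 0.06. Egr2, the transcription factor that drives peripheral myelin genes and also acts in hair follicles, read 7.26, 7.38 and 7.96 (0.41 ± 0.33). It was thus higher in both null arrays, but its difference in null 1, 0.12, was smaller than the gap between the null arrays. Erbb2, the co-receptor for the axonal signal neuregulin and an epidermal receptor as well, was at 0.48 ± 0.26. Id2, an inhibitor of differentiation, was at -0.60 ± 0.30, and Zeb2, a repressor needed for Schwann cell maturation, at -0.39 ± 0.28.

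Of 32 axon and sensory neuron genes with a probe set, 6 were tested, with 0 above and 2 below wild type in both arrays and a median of -0.23. The median was 0.09 in null 1 and -0.44 in null 2. Basp1 and Marcks, which resemble Gap43 as substrates at the membrane of growth cones, did not show its pattern in null 1. Basp1 read 9.16, 9.24 and 8.76, and Marcks 10.3, 10.2 and 9.74. Marcksl1, of the same family as Marcks, was at -0.39 and -0.42 in the null arrays, and Dpysl3, a growth cone phosphoprotein, at 0.09 and -0.83.

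Among neurotrophins, GDNF family ligands and their receptors, 8 of 21 with a probe set were tested, with 3 above and 4 below wild type in both arrays and a median of -0.13. Ntrk2, the receptor of brain-derived neurotrophic factor, read 6.73, 6.52 and 6.04 (-0.44 ± 0.31). Maged1, a partner of p75, was at -0.56 ± 0.26. Nrp1, a semaphorin receptor of axons and vessels, was at -0.07 and -0.69 in null 1 and null 2. Gfra2, the neurturin receptor, was at 0.81 and 0.03.

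**Figure D4:**
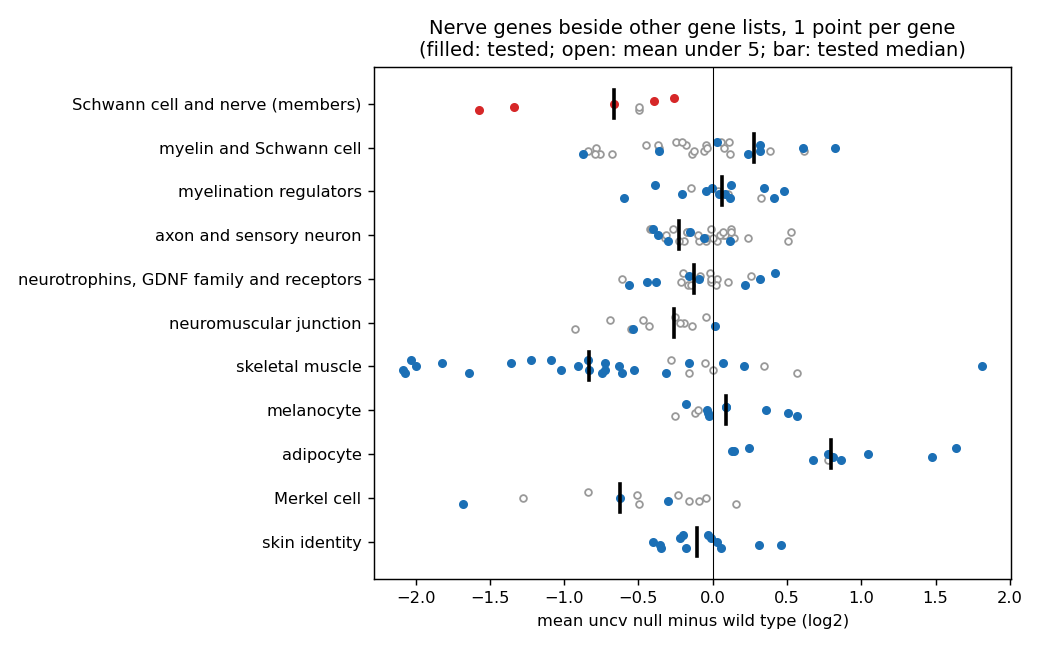
Mean difference of the null arrays from wild type (log2) for each gene of the nerve set (red) and of 10 other lists (blue), with filled points for tested genes, open grey points for genes with a mean under 5 and a bar at the median of tested genes. The nerve set has its median at -0.66 and the skeletal muscle list at -0.84. The further myelin and Schwann cell list has its tested genes on both sides of 0 with a median of 0.28. Its median over all 30 genes with a probe set was -0.09.

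Position was compared as well. Pmp22, Cnp and Ngfr lie on chromosome 11, as does Rhbdf2, in which uncv arose, while the other members lie elsewhere. Of 739 tested genes on chromosome 11, 24.4% were lower in both null arrays, and their median difference was 0.05.

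The arrays also differed in their controls, whose part in the member differences was not tested. The Actb control read higher at its 3′ end than at its 5′ end by 0.66 in wild type, 1.23 in null 1 and 0.79 in null 2. The 18 probe sets for spiked-in hybridisation controls averaged 0.70 higher in null 1 and 0.43 higher in null 2 than in wild type. With every array scaled to its spike-ins, the median of all tested genes shifted by -0.70 and -0.43, and relative to that shift the member differences are those given above.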

How the data were processed

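Total RNA of dorsal skin was hybridised to 1 biotin-labelled, 1-colour array per sample. The deposited table holds log2 expression that the authors summarised by RMA, a tool listed in the submitters' processing notes. Its software and background model are not stated in those notes. RMA brings probe intensities to 1 distribution and compresses dim values. The probe set values still differed slightly, with medians of 3.70, 3.70 and 3.65 in wild type, null 1 and null 2. There are no counts, and the number of arrays limits precision. P-values rest only on the spread between the 2 null arrays, moderated over probe sets, and no spread among wild type mice was measured.

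The 64 control probe sets were kept apart. Of 45037 others, 34945 had 1 gene symbol in the platform annotation, 932 several and 9160 none. Probe sets with a mean of at least 5 (13559) were fitted with limma 3.58.1 in R 4.3.3 (lmFit, eBayes, Benjamini-Hochberg, threshold 0.05). With 1 residual degree of freedom, moderated by 4.75 prior degrees of freedom, the fit takes the spread of wild type to equal that of the null arrays. The fit was checked on simulated data. A gene was represented by its brightest probe set.

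The members and lists were chosen with earlier results of these data known. Named companion genes were defining markers and the 4 tested genes farthest from wild type in each nerve list. The 5 genes nearest to Mbp and to Gap43 were also named. Krt8, Agrn, Actn3 and Myh1 were chosen after their values were seen. Some listed markers are not reported here. Alternatives were other filters, probe set rules, scalings, an intensity trend, and leaving out each uncv null array.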

Additional observations from a re-analysis of the deposited data

Results flagged for a closer look

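Ribosomal 18S RNA, read by 3 control probe sets, had a mean of 7.93 in uncv null 1, against 3.59 in wild type and 4.26 in uncv null 2. They stand outside the main comparison and were picked out because 1 array lay far above wild type. Their part in the member differences was not tested.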

How the results depend on the processing

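With 1 wild type array, every value rests on it, and it could not be left out. The count of member genes lower in both uncv null arrays (4 of 5 tested) ran from 3 to 6 over all alternatives. The number of genes counted changed with the filter. The 3 came with a minimum mean of 7, where Mbp, Pmp22 and Cnp alone were left and all were lower. The 6 came from 7 genes, with Ngfr and S100b entering where the filter was removed. The count at least 2-fold lower in both, 1, became 0 on averaging all tested probe sets per gene, which brought Mbp to -1.17 with 1425264_s_at among them, and 3 with spike-in scaling. It ran from 1 to 2 when either uncv null array was left out, Gap43 being added without uncv null replicate 1. The median difference of the member genes, -0.66, became -1.22 with spike-in scaling, and ran from -0.89 to -0.44 when an array was left out. The count of probe sets past limma's threshold, 0, became 71 with spike-in scaling, 61 lower and 10 higher, of which 6 belonged to Mbp and Gap43; spike-in scaling made 85.4% of tested genes lower in both arrays, and these calls came from the contrast that chose the genes. It was 0 under the other alternatives run. Of 118 other values, single members and list medians, 23 moved by more than the spread between the uncv null arrays and 12 changed sign, among them Sox10 (0.03 without uncv null replicate 2) and the further myelin and Schwann cell list (-0.09 with no filter and -0.29 with spike-in scaling). The cause was not tested. Values near the Y-linked range are limited by signal over background.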
